A study of Mus musculus with 3 samples.

Results

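Retinoic acid is made from vitamin A and acts as a diffusible signal that patterns the hindbrain, trunk, and heart of the vertebrate embryo. Retinol enters cells through the receptor Stra6, is oxidized to retinaldehyde and then, by retinaldehyde dehydrogenases such as Aldh1a2, to retinoic acid. Hydroxylases of the Cyp26 family break retinoic acid down, Crabp proteins carry it within the cell, and retinoic acid receptors (RARs), paired with retinoid X receptors (RXRs) on DNA, switch target genes when they bind it. In the mouse, *Aldh1a2* is known from trunk mesoderm around the headfold stage, and *Cyp26a1* from domains at the anterior and posterior ends of the embryo.

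Of this pathway, 9 genes were followed by their symbol: *Stra6*, *Aldh1a2*, *Cyp26a1*, *Crabp1*, *Crabp2*, *Rara*, *Rarb*, *Rarg*, and *Rxra*. All 9 were among the 30854 gene symbols measured. Total RNA came from the embryonic region, cut away at the junction with the extraembryonic region, of wild-type early headfold (EHF) embryos. The labels give the strain as Cd-1, and the methods name it ICR. The labels name a column kit for the RNA, and the methods TRIzol. Levels were read on 3 Mouse-6 bead arrays (Illumina), replicates 1, 2, and 3, which formed a single group with no treated, mutant, or control group beside it. Since the labels do not say whether they came from separate embryos or pools, the spread between them may be technical.

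The authors deposited a log2 signal for each symbol, averaged over its probes and not normalized between arrays. Beside it stand the mean number of beads, a standard error over beads, and a detection p-value. For a symbol read by 1 probe this is the share of negative controls at least as bright. For a symbol of several probes it is a combined value, and how it was combined was not analysed here. The threshold used here for a gene above background was a detection p under 0.01 on each of the 3 arrays. On replicates 1, 2, and 3, the dimmest symbol read by 1 probe with a detection p under 0.01 on that array had a log2 signal of 6.69, 6.66, and 6.58. The whole arrays differed in brightness in the same order, with median log2 signals of 6.57, 6.51, and 6.42. Signals depend on how well each probe binds, so each gene was compared with the background of its own array and not with other genes. In RNA from a mixed tissue, fewer cells of a type and less RNA per cell cannot be told apart.

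The labelled tissue was checked with marker genes. All 5 paraxial mesoderm markers in the table and all 6 primitive streak markers were above background. So were 3 of 6 node and notochord markers, 3 of 5 cardiac markers, 1 of 6 anterior neural plate markers (*Otx2*), and 1 of 6 primitive blood markers (*Tal1*). Over all symbols the share above background was 20.6%, which the anterior neural plate and primitive blood lists, at 16.7% each, did not reach. Visceral endoderm covers the extraembryonic region, and the paper also describes cells derived from it within the gut endoderm at this stage. Of its markers 10 of 12 were above background, and of extraembryonic ectoderm markers 4 of 9. Of the latter list, the genes above background were *Rhox5*, *Ets2*, *Bmp4*, and *Tfap2c*, at 4.35, 3.52, 2.85, and 2.19 (log2) over background after normalization, while *Elf5*, *Eomes*, *Ascl2*, and *Gcm1* met the threshold on no array. These 8 genes were named after their values were seen.

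RARs bind pairs of a short hexamer repeated in the same direction, and the best known spacing is 5 bases (DR5). The hexamer was allowed to read AGGTCA, to begin with another purine as GGGTCA, or to take the variant forms AGTTCA, known from such elements, and the related GGTTCA. It was searched on both strands, as repeats with 1, 2, or 5 bases between them, in promoter windows of 300 bases from RefSeq (GRCm38.p6). Windows were listed for 8 of the 9 genes, 16 windows in all. *Crabp2* had none listed. A DR5 was found in 2 of these windows, that of *Rarb* and that of *Cyp26a1*, and in 0.0974% of all 32851 windows. Both hold only the variant hexamers GGTTCA and AGTTCA, so neither would be found with AGGTCA and GGGTCA alone. Since variants known from such elements were allowed, the shares are not a test. No DR1 or DR2 was found in the 16 windows, against 0.222% and 0.268% of all windows. These are matches of letters in a window and say nothing of the factor or of other windows. They are shown because a receptor gene and the gene of the degrading enzyme share nearly the same element. Each sequence below is 30 bases long and is written on the strand that reads the repeat, with the hexamers in capitals. That of *Rarb* lies at chr14:16575506-16575535 on the minus strand, which is the strand of the gene, and that of *Cyp26a1* at chr19:37697770-37697799 on the minus strand, opposite to the gene.
Rarb: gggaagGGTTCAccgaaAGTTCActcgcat
Cyp26a1: acaaattAGTTCAcccaaAGTTCAtcttta

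The DR5 of *Rarb* ended 36 bases before the start of transcription given by RefSeq, and that of *Cyp26a1* 15 bases before it. Over their 17 bases the elements were identical at 15 positions. The differences, from *Rarb* to *Cyp26a1* and counted from 1 at the 5′ end of the element, were G1A in the first hexamer and G9C in the spacer. *Rarb* holds a further hexamer upstream of the pair, seen in the 100 bases before its start (chr14:16575477-16575576, minus strand), where all matches to a hexamer on either strand are in capitals.
Rarb, upstream: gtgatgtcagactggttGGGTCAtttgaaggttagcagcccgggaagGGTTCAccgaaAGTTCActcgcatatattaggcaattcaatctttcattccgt

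The detection threshold was met on all 3 arrays by 4 of the 9 genes: *Aldh1a2*, *Cyp26a1*, *Crabp1*, and *Crabp2*. Over all symbols the share was 20.6%. *Rarb* and *Rarg* met it on 2 arrays each, so that 6 of the 9 met it on at least 1 array, against 33.0% of all symbols. *Stra6*, *Rara*, and *Rxra* met it on none, as did 67.0% of all symbols. The enzymes of synthesis and breakdown and both carriers were thus called by this rule, and none of the receptors was. Of the 5 genes read by 1 probe 3 were called, against 20.8% of all such symbols, and of the 4 read by several probes 1 was called, against 21.0%.

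**Figure D1:**
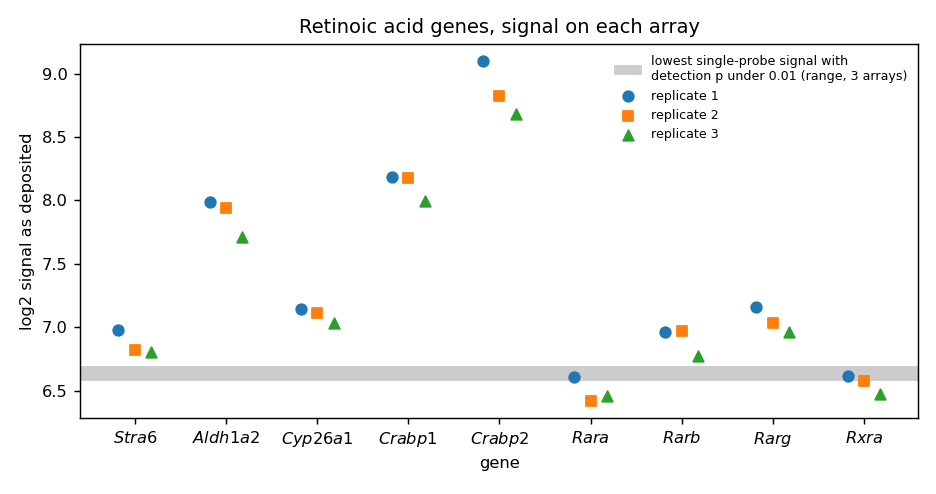
Log2 signal as deposited (y axis) of each of the 9 genes (x axis) on replicates 1, 2, and 3 (points). The grey band spans the lowest single-probe signal with a detection p under 0.01, from 6.58 to 6.69 over the arrays. *Aldh1a2*, *Crabp1*, and *Crabp2* lie far above it on each array, and *Rara* and *Rxra* at or under it.

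*Aldh1a2*, the dehydrogenase that makes most retinoic acid in the early embryo, was measured by 1 probe. Its log2 signals as deposited were 7.99, 7.94, and 7.71 on replicates 1, 2, and 3, from 33, 32, and 36 beads, with a detection p of 0 on each. Every array placed it well clear of background. The standard error over beads was 7.99%, 7.24%, and 9.57% of the signal, or 0.12, 0.10, and 0.14 on the log2 scale. The SD of the signal between arrays was 0.15, as deposited.

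*Cyp26a1*, the hydroxylase that clears retinoic acid from parts of the embryo, was measured by at least 2 probes. Its mean log2 signals were 7.15, 7.11, and 7.04, with combined detection p-values of 0.00212, 0.00330, and 0.00101. Its mean signal lay 0.46 (log2) above the lowest single-probe signal that met the threshold on each array. Its combined detection p lay nearer to the threshold but met it on each. Its SD between arrays, 0.06 as deposited, was the lowest of the 9 genes on that scale only. For levels over background after normalization its SD was 0.12, and the lowest was 0.05, for *Aldh1a2*. With a stricter detection p, under 0.001, *Cyp26a1* was no longer called, which left 3 genes.

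The carriers *Crabp1* and *Crabp2* bind retinoic acid in the cytoplasm, and Crabp2 also delivers it to the receptors in the nucleus. *Crabp1* had log2 signals of 8.19, 8.17, and 8.00 from 52, 32, and 39 beads. *Crabp2* had 9.10, 8.83, and 8.68 from 42, 43, and 30 beads. For both genes, each read by 1 probe, the detection p was 0 on each array. The SD of *Crabp2* between arrays, 0.21 as deposited, was the highest of the 9 genes on that scale. Over all symbols above background the median SD was 0.25, since the arrays differed in brightness. The SD of its level over background after normalization was 0.10. Its error over beads was 0.06 to 0.11 on the log2 scale. For *Crabp1* the SD as deposited was 0.11 and the error over beads 0.07 to 0.10.

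The receptors differed from each other in how they met the threshold. *Rara*, the receptor with the broadest expression in the embryo, had log2 signals of 6.61, 6.42, and 6.46 and detection p-values of 0.0791, 0.686, and 0.150. *Rxra*, the main RXR partner in the embryo, had 6.62, 6.57, and 6.47, with detection p-values of 0.0620, 0.0652, and 0.115. Both were read by 1 probe, and neither was distinguishable from the negative controls on any array. This gives an upper limit set by that probe and does not show that the transcripts were absent.

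*Rarb*, the receptor gene whose DR5 is shown above and which is known to be induced by retinoic acid, was measured by at least 3 probes. Its mean log2 signals were 6.97, 6.97, and 6.78, and its combined detection p-values were 0.0614, 5.58e-07, and 4.00e-06. It missed the threshold on replicate 1, where its mean signal was as high as on replicate 2. *Rarg*, also measured by at least 3 probes, had mean log2 signals of 7.16, 7.03, and 6.96, with combined detection p-values of 1.04e-07, 3.57e-05, and 0.0313. It missed the threshold on replicate 3 only. *Stra6*, the membrane receptor for the retinol carrier of the blood, was measured by at least 2 probes. Its mean log2 signals were 6.98, 6.82, and 6.81, and its combined detection p-values were 0.489, 0.175, and 0.307.

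In these 3 genes the combined detection p and the mean signal gave different calls. A mean cannot exceed its highest value, so at least 1 probe of each gene was as bright as the mean or brighter. The mean signals of *Stra6* lay 0.29, 0.17, and 0.23 (log2) above the lowest single-probe signal that met the threshold on replicates 1, 2, and 3. Single-probe symbols no brighter than *Stra6* reached detection p-values of 0, 0.00107, and 0. For *Rarb* the distances were 0.28, 0.32, and 0.20, and for *Rarg* 0.48, 0.38, and 0.38, with a detection p of 0 at the same signals on every array. When the detection p was read at the mean signal in this way, a rule chosen after the values were seen, 7 of the 9 genes were called, against 26.3% of all symbols. These included all 4 genes with several probes, against 40.6% of all symbols with several probes. Of the 3326 symbols with several probes that this rule called, 1691 lacked the combined call, so the gap was common on these arrays. Which transcripts the single probes read was not analysed here.

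**Figure D2:**
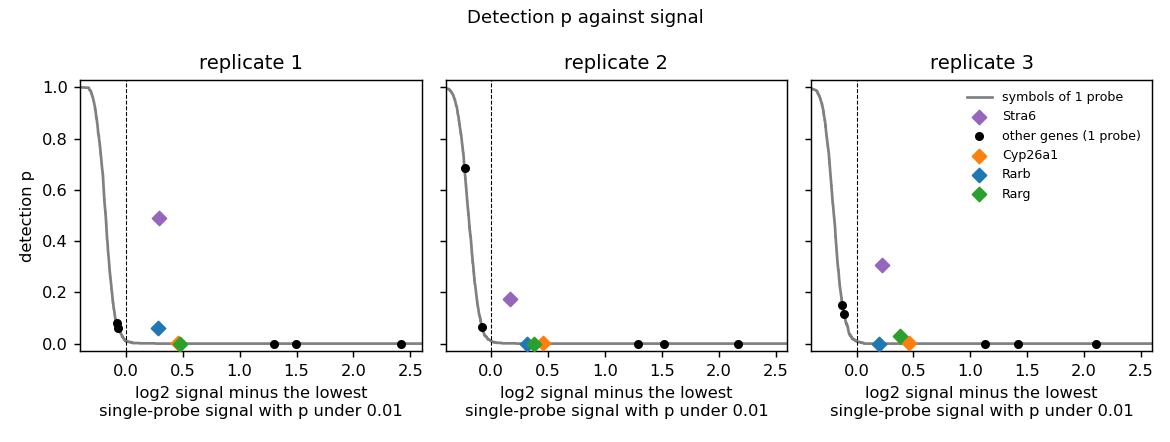
Detection p (y axis) against the log2 signal, given as its distance from the lowest single-probe signal with a detection p under 0.01 (x axis, dashed line at 0), on each array. The grey line follows symbols of 1 probe, diamonds are *Stra6*, *Cyp26a1*, *Rarb*, and *Rarg*, which have several, and black points are the other genes. *Stra6* sits off the line on each array, *Rarb* on replicate 1, and *Rarg* slightly on replicate 3.

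For levels with an error, background was removed by the normexp model, the arrays were quantile normalized, and the background level of the same array was subtracted on the log2 scale. A one-sided limma test of this difference from 0 was adjusted by the Benjamini-Hochberg method over all 30854 symbols. It called 7 of the 9 genes, against 25.7% of all symbols. For symbols with several probes it uses the mean signal. The detection p read at that signal called 40.6% of all such symbols. *Crabp2* was 3.77 above background, with replicates at 3.89, 3.69, and 3.75. *Crabp1* was 2.85 above it (2.77, 2.88, and 2.89) and *Aldh1a2* 2.50 (2.48, 2.57, and 2.46). The replicates of these 3 genes differed by far less than their distance from background. Without background correction the levels were lower, at 2.22 for *Crabp2*, 1.48 for *Crabp1*, and 1.23 for *Aldh1a2*.

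*Cyp26a1* was 1.19 above the background level, with replicates at 1.08, 1.19, and 1.32. *Rarg* was 1.09 above it (1.11, 1.01, and 1.15), *Rarb* 0.75 (0.69, 0.88, and 0.67), and *Stra6* 0.66 (0.71, 0.50, and 0.76). All replicates of these 4 genes lay above background. *Rara*, at -0.45, and *Rxra*, at -0.32, lay below it on every array. The standard error was 0.15 (n = 3) for every gene, since the fit pooled the spread over symbols, and the adjusted p-values therefore treat that spread as known. For *Stra6*, the called gene closest to background, the adjusted p from limma was 3.13e-05, and over 9 alternative settings it ranged up to 0.00788. Over the alternatives the largest adjusted p of the other called genes was 0.00732, for *Rarb*.

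**Figure D3:**
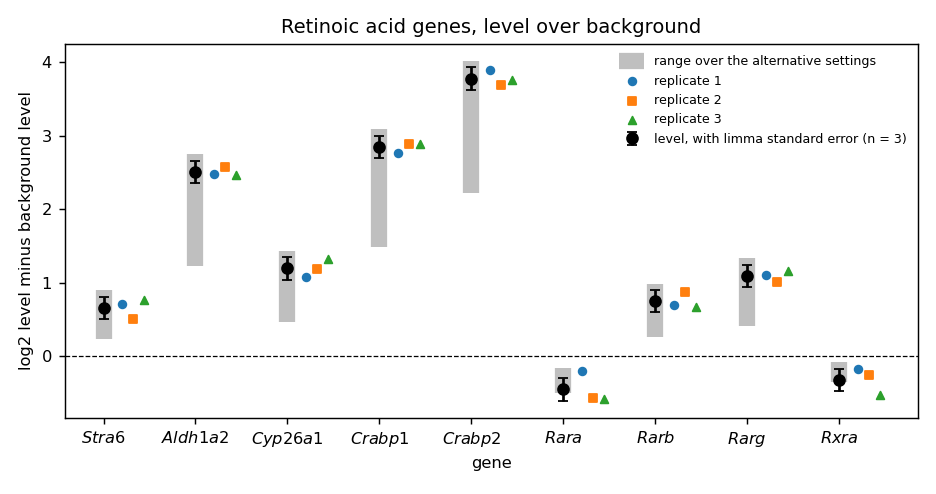
Level of each gene minus the background level of its array, on the log2 scale (y axis, dashed line at 0), for the 9 genes (x axis). Black points are means with the limma standard error of 0.15 (n = 3), grey bars the range over the alternative settings, and coloured symbols the replicates. *Rara*, at -0.45, and *Rxra*, at -0.32, lie below the line, the other genes lie above it, and no grey bar crosses 0.

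As deposited, 8 of the 9 genes had their lowest signal on replicate 3 and 8 had their highest on replicate 1, which was also the case for 93.4% and 84.9% of all 6357 symbols above background. In the quantile normalized levels, before the background level was subtracted, none of the 9 was lowest on replicate 3 or highest on replicate 1, against 34.1% and 29.4% of all symbols above background. The order of the arrays thus turned with the scaling, and no difference between arrays is claimed for these genes.

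The other genes of the pathway were taken from lists by role, 69 genes of which 66 had a matched symbol. The threshold was met by 17 of the 66, 25.8%, against 20.6% of all symbols. The limma test called 29, against 25.7% of all symbols. The highest share was among genes known to respond to retinoic acid, with 8 of 14. No gene met the threshold in 3 lists, which were the 4 other retinaldehyde dehydrogenases, the 2 genes of other hydroxylases and their electron donor, and the 4 other receptors and carriers. With 20.6% of all symbols above background, a count of 0 in lists this small says little. Of these lists limma called 0, 1, and 2 genes.

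**Figure D4:**
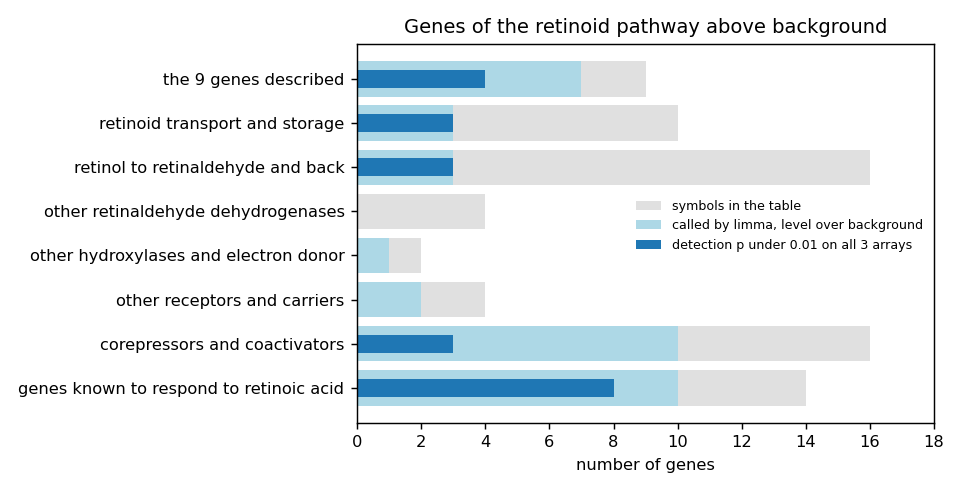
Number of genes (x axis) in each list of the retinoid pathway (y axis). Grey bars count the symbols in the table, light blue bars those called by limma, and dark blue bars those that met the detection threshold on each of the 3 arrays. Among genes known to respond to retinoic acid 8 of 14 met the threshold, and among the other retinaldehyde dehydrogenases 0 of 4. Over all symbols the share was 20.6%.

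Carriers and storage enzymes of retinol come before *Aldh1a2* in the pathway. Of these, 3 of 10 were above background, and the highest mean log2 signal among those that were not was 6.63, for *Dgat1*, which limma did not call either. *Rbp4*, which carries retinol in blood and yolk, had log2 signals of 7.57, 7.52, and 6.76, and *Ttr*, the protein that holds Rbp4 in the circulation, 11.40, 11.48, and 10.09. *Rbp4* and *Ttr* were lower on replicate 3 than on the others under both scalings, with *Rbp4* at 1.85, 1.92, and 0.63 above background after normalization. Both are also products of visceral endoderm, whose 12 markers had a summed linear signal of 12480, 13350, and 6657 on the 3 arrays. That sum is not normalized and is weighted to bright markers such as *Spink3* (4450, 3837, and 1290). After normalization, its 10 markers above background deviated from their own means by a median of -0.08, 0.34, and -0.13 (log2). The part of that tissue in the values of *Rbp4* and *Ttr* was not tested. The summed signal of the 9 genes themselves was 1825, 1678, and 1529. Both sums hold uncorrected background, which is a larger part of that of the 9 genes. Their changes between arrays are therefore not comparable.

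Of the dehydrogenases that convert retinol to retinaldehyde or back, 3 of 16 were above background, 18.8% against 20.6% of all symbols. The retinaldehyde reductase *Rdh11* had log2 signals of 8.50, 8.51, and 8.03, the related *Rdh14* 6.83, 7.07, and 6.64, and *Dhrs4* 6.80, 6.67, and 6.51. *Dhrs4* was at 0.01 above the background level and was not called by limma. *Rdh10*, the main retinol dehydrogenase of the embryo, and *Dhrs3*, which reverses its step, were named after their values were seen, and neither met the threshold on any array. Their mean log2 signals were 6.50 (SD 0.09, n = 3) and 6.43 (SD 0.07, n = 3). Of the genes of this list that missed the detection threshold, the highest mean signal was that of *Adh5*, at 7.66 over at least 4 probes, and limma called it at 2.17 above background.

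*Aldh1a2* was the sole retinaldehyde dehydrogenase above background, since *Aldh1a1*, *Aldh1a3*, *Aldh1a7*, and *Aldh8a1* met the threshold on no array. Their mean log2 signals were at most 6.48, and limma called none of them, which does not show that their transcripts were absent. *Cyp26b1*, another hydroxylase of the family, met it on no array either, with log2 signals of 6.54, 6.52, and 6.29. *Por*, which passes electrons to Cyp26 enzymes, met it on 1 array and was called by limma at 1.33 above background.

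None of the 4 other receptors and carriers was above background on all arrays, against 20.6% of all symbols. *Rxrb*, measured by at least 3 probes, had log2 signals of 8.31, 7.76, and 7.82 and combined detection p-values of 0.0333, 0.000582, and 0.0631. Like *Rarb* and *Rarg* it was called by limma, at 2.62 above background. *Rxrg*, measured by 1 probe, met the threshold on replicates 1 and 2 but not on replicate 3, where its detection p was 0.0951.

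Of the corepressors and coactivators that RARs recruit, 3 of 16 met the threshold, 18.8% against 20.6% of all symbols. The limma test, which uses the mean signal of symbols with several probes, called 10, against 25.7% of all symbols. *Carm1*, a coactivator that methylates histones, had log2 signals of 8.58, 8.13, and 8.28. *Gps2* and *Tbl1x*, subunits of the corepressor complex, had 7.44, 7.27, and 7.30 and 7.85, 7.60, and 7.37. Of those that missed the detection threshold, the highest mean signal was that of *Sin3a*, at 9.15, with detection p-values of 0.000252, 0.0773, and 0.0736, and limma called it at 4.11 above background.

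Genes known to respond to retinoic acid were above background in 8 of 14 cases, 57.1% against 20.6% of all symbols. *Hoxb1*, a hindbrain patterning gene with retinoic acid response elements near it, had log2 signals of 8.97, 8.47, and 8.39. *Cdx1*, a posterior patterning gene, had 8.01, 7.70, and 7.71, and *Meis2*, a Hox cofactor, 10.50, 10.23, and 9.84. *Gbx2*, of the anterior hindbrain, had 11.85, 11.42, and 10.98. *Hoxb4* and *Tshz1* were also called, with mean levels of 0.82 and 2.45 above background. *Meis1*, another Hox cofactor, missed the detection threshold on replicate 2 only, with a mean log2 signal of 7.73, and limma called it at 2.28 above background. No sample without retinoic acid was on these arrays, so these are levels and not responses.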

How the data were processed

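RNA from 3 samples of a single group was analysed, and samples were mapped by their titles. The authors deposited log2 signals per symbol, not normalized between arrays. The mean bead number was deposited as a score, the standard error over beads as a linear intensity, and the detection value as a p-value. Partek is named in the submitters' notes. A legend of the study names normalized levels, the p-value threshold of 0.01 used here, and a fixed signal as background limit, which was not used. How that limit was set is not given in the sources used here. The genes and lists were chosen with earlier results of these data known. All 9 genes are named, as are the list genes above background except some that are not reported here, and 3 list genes were matched through an older symbol.

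The deposited detection p-values of symbols read by 1 probe had steps of 1/936. A symbol counted as 1 probe (21977 symbols) where its bead numbers were whole and its p lay on these steps (tolerance 0.002). Other symbols were given the smallest number of probes that made the summed beads whole, a lower limit. The background level was the lowest level of a single-probe symbol with a detection p above 0 and under 0.01. Levels used normexp fitted to the detection p, an offset of 16, and quantile normalization, which left background levels of 4.68, 4.81, and 5.06. The one-sided limma test (lmFit, eBayes; threshold 0.05) was tested on simulated data. Alternatives covered thresholds, arrays, normalization, correction, offset, background level, filter, and each replicate left out. The number of arrays limits the precision. Python 3.11.15, R 4.3.3, and limma 3.58.1 were used.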

Additional observations from a re-analysis of the deposited data

How the results depend on the processing

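The number of the 9 genes above background was 4, and 7 with the limma test or with the detection p read at the mean signal, an alternative chosen after seeing the data. In both, *Rarb*, *Rarg*, and *Stra6* were added. Both rules set the mean signal against single-probe symbols of the same array, so their agreement is not independent support. It was 5 with a detection p under 0.05, 3 under 0.001, 6 with detection on at least 2 or at least 1 array, and 4 to 5 without a replicate, with *Rarb* added without replicate 1 and *Rarg* without replicate 3. The other genes of the pathway numbered 17, and 29 with the limma test, with the detection p read at the mean signal, or with detection on at least 1 array. Without a replicate they numbered 18 to 18. The limma test called 7 of the 9 genes under each alternative except the filter on dim symbols, where *Stra6*, *Rara*, and *Rxra* were not tested and 6 were called, and no level of a gene changed direction. The cause of these differences was not tested. For the 7 called genes, levels were lowest without background correction, at 2.22 for *Crabp2* and 0.23 for *Stra6*. No paired analysis was possible because all 3 arrays belong to 1 group. A probe not above background gives only an upper limit, which holds for *Rara* and *Rxra* and for list genes such as *Rdh10*, *Dhrs3*, and *Cyp26b1*.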
